A study of Homo sapiens with 27 samples.

Results

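The 10 genes described here encode selenoproteins, proteins that carry the amino acid selenocysteine: GPX1, GPX4, SELENOW, SELENOT, SELENOM, SELENOF, SELENOK, SELENOS, SELENOP and DIO2. They were chosen by symbol, through the Ensembl gene IDs of the deposited count files, and make up 10 of the 60534 gene IDs that all libraries share. All 10 passed the filter on low counts in both assays. Their mRNA was measured by RNA-seq and their ribosome footprints, the mRNA fragments that ribosomes shield from RNase, by Ribo-seq.

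Selenocysteine is inserted at a UGA codon, which otherwise ends translation. A hairpin in the tail of the mRNA, the SECIS element, recruits SECISBP2 and the elongation factor EEFSEC, and a dedicated tRNA brings the amino acid. Cells short of selenium are known to lose some selenoprotein mRNAs, GPX1 and SELENOW among them, more readily than others such as GPX4. In fibroblasts the family detoxifies peroxides, serves protein folding and disposal in the endoplasmic reticulum (ER), and adjusts thyroid hormone. Gene counts do not show where on an mRNA a footprint lies, so ribosomes before and after the UGA codon were counted together, and the labels do not give the selenium content of the medium.

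All libraries came from IMR90, a single wild-type line of normal human lung fibroblasts. Cycling cells were harvested below confluence, and quiescent cells were arrested by contact inhibition. Senescence was induced by 15 Gy of ionizing radiation with harvest after 10 days, or by 50 µM etoposide, a topoisomerase II poison that breaks DNA, in 3 treatments over 10 days. Cycling cells were also treated for 3 h with 25 nM thapsigargin, a blocker of the ER calcium pump that upsets protein folding in the ER. Each state had 3 libraries per assay, apart from 2 of cycling RNA-seq and 2 per assay for thapsigargin. Nothing in the labels says that libraries came from separate cultures, so p-values measure the spread between these libraries, which may be technical.

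In units of 1e6, RNA-seq libraries held 20.6 to 57.1 gene counts and Ribo-seq libraries 1.94 to 20.0, the lowest being those of thapsigargin-treated cells. The thapsigargin libraries stand apart. Their RNA-seq had 1.40% and 1.35% unmapped reads against 27.8% to 40.6% in the other states, their Ribo-seq follows a longer gene list than that of the other states, and the labels describe their medium without antibiotics. Reads mapping to several places made up 65.2% and 66.9% of their Ribo-seq, against 19.8% to 31.9% in the other states. Such reads are in no gene's count. What the drug did and what came with these differences cannot be told apart. Within the quiescent state, RNA-seq replicate 3 had the most unmapped reads of all (40.6%) and differed from replicates 1 and 2 in several members. All 10 fibroblast markers were above 1 CPM (counts per 1e6 gene counts, after scaling) in every state, summing to 9030 to 14600 CPM. The leukocyte markers summed to at most 0.804 CPM and the endothelial ones to at most 2.62 CPM. Of 5 epithelial markers the 3 keratins exceeded 1 CPM in each state, while CDH1 was at 0 in cycling cells. In bulk samples such as these, fewer cells that express a gene and less RNA per cell cannot be told apart.

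Etoposide-senescent cells held more mRNA of 5 members than cycling cells and less of none. GPX1, SELENOW, SELENOM, SELENOP and DIO2 rose, both in mRNA and in footprints, against 34.5% of the 13289 genes tested that were called in RNA-seq and 33.9% of 11762 in Ribo-seq. A gene was called at an adjusted p under 0.05. In irradiated cells GPX1, SELENOW, SELENOM and SELENOP rose as well, but SELENOF, SELENOS and DIO2 fell, again in both assays, and GPX4 footprints rose. That made 7 of 10 called in RNA-seq and 8 of 10 in Ribo-seq, where 34.9% and 40.6% of all genes were called. The median log2 fold change of the 10 genes in RNA-seq was 0.64 after etoposide and 0.142 after radiation, and over all genes tested it was 0.002 and 0.033.

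In quiescent cells more members fell than rose. SELENOF, SELENOS and DIO2 fell and SELENOM rose in mRNA, so that 4 of 10 were called against 15.6% of all genes. In footprints GPX4 rose and SELENOT, SELENOF, SELENOS and DIO2 fell, 5 of 10 against 22.4%. Set directly against quiescent cells, the mean of both senescent states was higher in mRNA for 9 members and lower for GPX4, all 10 being called where 34.2% of genes were. That mean joins unlike states: SELENOS mRNA averaged 20.9 CPM in irradiated, 21.5 CPM in quiescent and 58.8 CPM in etoposide-treated cells, and the irradiated libraries of SELENOT and SELENOF also overlapped the quiescent ones. Neither inducer alone was tested against quiescence. Footprints were higher for 7 members and lower for none (26.1% of genes called). The median difference from quiescence was 0.665 on the log2 scale in RNA-seq and 0.687 in Ribo-seq, and over all genes 0.005 and 0.019. Both comparisons with quiescent cells rest on few libraries. Against cycling cells the count in RNA-seq was 2 without either cycling library and 7 without quiescent replicate 3. Of the senescent footprint calls, GPX1 and SELENOW were each lost in 4 of 16 alternative fits and SELENOM in 10, and the mRNA call of SELENOF was lost without quiescent replicate 1 or 2 (adjusted p of up to 0.058).

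The inducers of senescence differed from each other. Irradiated cells had less mRNA of SELENOT, SELENOF, SELENOS and DIO2 than etoposide-treated cells, 4 of 10 against 22.6% of all genes. In footprints they had less SELENOF, SELENOK, SELENOS and DIO2 and more GPX4, 5 of 10 against 22.5%. Thapsigargin raised SELENOK and SELENOS and lowered DIO2 in both assays, 3 of 10 against 24.5% of genes in RNA-seq and 44.6% in Ribo-seq. The last share is above that of the members.

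**Figure D1:**
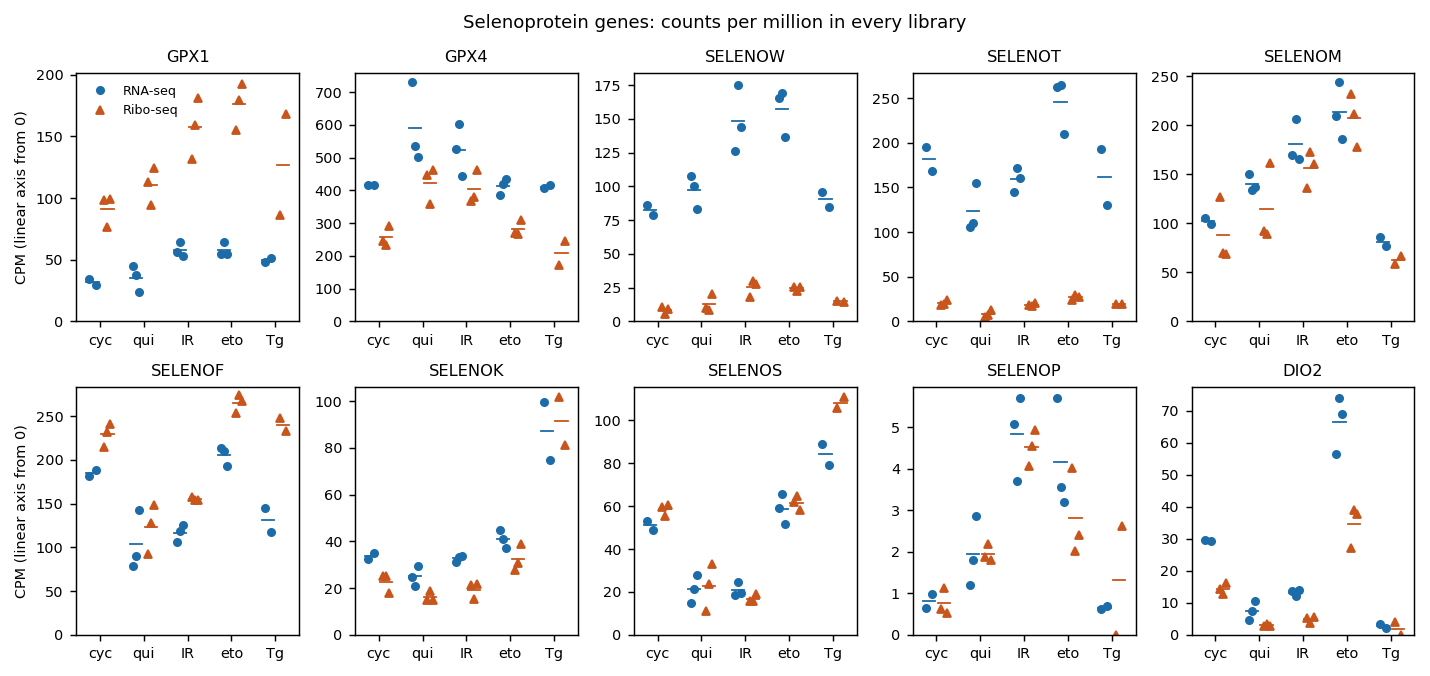
CPM (linear axes from 0) of each gene in every library, with RNA-seq as blue circles, Ribo-seq as orange triangles and horizontal lines at the means, for cycling (cyc), quiescent (qui), irradiated (IR), etoposide-treated (eto) and thapsigargin-treated (Tg) cells. SELENOK and SELENOS stand highest under thapsigargin, and DIO2 is highest after etoposide, at 56.4, 73.9 and 69.0 CPM in RNA-seq.

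GPX1 and GPX4 are glutathione peroxidases. GPX1 (ENSG00000233276, chromosome 3, 49357176 to 49358353 in GRCh38.p14), the cytosolic enzyme that reduces hydrogen peroxide, rose 1.79-fold in mRNA in irradiated cells and 1.80-fold after etoposide. Its mRNA stood at 34.7 and 29.8 CPM in the cycling libraries and at 45.2, 38.0 and 23.6 CPM in the quiescent ones. It reached 56.2, 64.4 and 53.1 CPM in irradiated, 54.9, 64.2 and 54.9 CPM in etoposide-treated and 48.1 and 51.6 CPM in thapsigargin-treated libraries. Every senescent library lay above every cycling and quiescent one, and the senescent states overlapped. The log2 change from cycling was 0.84 ± 0.21 (± SE, adjusted p = 0.0078) after radiation and 0.85 ± 0.21 (0.0078) after etoposide. Both calls were lost without cycling RNA-seq replicate 2, where the adjusted p reached 0.082 and 0.084. GPX1 footprints moved likewise, from 98.2, 76.5 and 99.6 CPM in cycling cells to 131, 159 and 181 CPM in irradiated and 155, 179.8 and 193 CPM in etoposide-treated cells. The footprint changes of 0.78 ± 0.20 and 0.95 ± 0.20 both passed the test (adjusted p = 0.0072 and 0.0025). In quiescent cells the mRNA change of 0.14 ± 0.21 did not pass (adjusted p = 0.72, 95% interval -0.31 to 0.60). Under thapsigargin the values were 0.63 ± 0.23 in mRNA and 0.48 ± 0.23 in footprints (adjusted p = 0.062 and 0.11), and the footprint libraries, at 86.0 and 168 CPM, lay far apart. RefSeq lists 2 pseudogenes of GPX1, so reads that fit several copies are missing from its counts and its level is uncertain.

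GPX4 (ENSG00000167468, chromosome 19, 1103994 to 1106779) reduces lipid peroxides within membranes and is the enzyme that holds back ferroptosis. GPX4 footprints rose in quiescent and irradiated cells. They were at 245, 233 and 293 CPM in cycling cells, 447, 359.8 and 462 CPM in quiescent and 367, 379.8 and 463 CPM in irradiated cells. After etoposide they were at 269.6, 267 and 309.8 CPM, overlapping the cycling libraries, and under thapsigargin at 172 and 245 CPM. Footprints rose by a log2 change of 0.72 ± 0.15 in quiescence (adjusted p = 0.0036) and 0.65 ± 0.15 after radiation (0.0030). Irradiated cells lay above etoposide-treated ones by 0.51 ± 0.15 (adjusted p = 0.022), a call lost without irradiated replicate 3 or etoposide replicate 1 or 2 (adjusted p of up to 0.13). The mRNA values ran from 417 and 416 CPM in cycling cells to 730.1, 535 and 503 CPM in quiescent, 526, 604 and 444 CPM in irradiated and 385, 419 and 434 CPM in etoposide-treated cells. Neither mRNA change passed, at 0.50 ± 0.16 (adjusted p = 0.052) in quiescence and 0.33 ± 0.16 (0.13) after radiation, and both intervals (0.15 to 0.85 and -0.01 to 0.68) hold the footprint value. Against quiescence the senescent mean was lower in mRNA by a log2 change of -0.34 ± 0.12 (adjusted p = 0.045), a call lost in 11 of 16 alternative fits, among them those without any one of 7 libraries.

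SELENOW and SELENOT are small proteins with a thioredoxin-like fold, SELENOW in the cytosol and SELENOT in the ER membrane. SELENOW (ENSG00000178980, chromosome 19, 47778703 to 47784682) rose in both senescent states. Its mRNA was at 86.4 and 78.8 CPM in cycling, 108, 100.5 and 83.3 CPM in quiescent and 96.2 and 84.7 CPM in thapsigargin-treated cells. It was at 127, 175 and 144 CPM in irradiated and 166, 169 and 137 CPM in etoposide-treated cells, above every library of the other states. The log2 changes were 0.85 ± 0.16 and 0.93 ± 0.16 in mRNA (adjusted p = 0.0011 and 0.00060). In footprints they were 1.54 ± 0.34 and 1.52 ± 0.33 (adjusted p = 0.0026 and 0.0029), from 11, 5.79 and 9.21 CPM in cycling cells to 18.1, 30.0 and 28.1 CPM and 25.5, 22.9 and 25.5 CPM. The footprint rise was 2.91-fold after radiation and the mRNA rise 1.80-fold, but the difference between them, tested below, did not pass. RefSeq lists 1 pseudogene of SELENOW and 2 of SELENOT, so both levels are uncertain.

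SELENOT (ENSG00000198843, chromosome 3, 150603321 to 150630436) differed most in quiescent cells. SELENOT footprints were at 5.18, 7.42 and 12.8 CPM there, below every library of every other state, against 18.1, 19.7 and 24.5 CPM in cycling cells. They were at 18.1, 17.5 and 20.9 CPM in irradiated, 23.5, 29.1 and 27.8 CPM in etoposide-treated and 19.2 and 20.0 CPM in thapsigargin-treated cells. The footprint change from cycling to quiescent was -1.29 ± 0.26 (adjusted p = 0.0033). The mRNA was at 195 and 169 CPM in cycling and 106, 111 and 155 CPM in quiescent cells, a change of -0.56 ± 0.19 that did not pass (adjusted p = 0.067). The quiescent mRNA value of 155 came from replicate 3, and without that library the change was called at -0.75 (adjusted p = 0.013). SELENOT mRNA was higher after etoposide, at 262, 265 and 210.1 CPM, than after radiation, at 145, 172 and 160.5 CPM, a difference of -0.63 ± 0.17 (irradiated minus etoposide, adjusted p = 0.019). That call was lost without irradiated replicate 1 or 3 or etoposide replicate 1 or 2, with an adjusted p of up to 0.085.

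SELENOM and SELENOF are thiol-disulfide proteins of the ER lumen, and SELENOF binds UGGT1, the enzyme that senses misfolded glycoproteins. They moved apart. SELENOM (ENSG00000198832, chromosome 22, 31104777 to 31107568) rose in senescence: its mRNA was at 106 and 99.1 CPM in cycling, 149.9, 134 and 137 CPM in quiescent, 170.2, 207 and 166 CPM in irradiated and 210.0, 244 and 186 CPM in etoposide-treated cells. The log2 changes from cycling were 0.82 ± 0.14 (adjusted p = 0.00047), 1.06 ± 0.14 (6.4e-05) and, in quiescence, 0.46 ± 0.14 (0.038). The quiescent call was lost without cycling replicate 1 or 2 or quiescent replicate 1, with an adjusted p of up to 0.22. Under thapsigargin SELENOM mRNA was at 85.8 and 77.0 CPM, below every cycling library, but the change of -0.33 ± 0.15 did not pass (adjusted p = 0.12). SELENOM footprints varied within states, at 127, 69.3 and 69.2 CPM in cycling and 92.5, 89.6 and 162 CPM in quiescent cells. They rose to 137, 173 and 160.2 CPM after radiation and 232, 212 and 178 CPM after etoposide, by 0.82 ± 0.25 (adjusted p = 0.020) and 1.23 ± 0.25 (0.0020). The former call was lost in 5 of 13 alternative fits, without cycling replicate 2 or 3 or irradiated replicate 2 or 3 and without the filter. Against quiescence the senescent footprint mean was higher by 0.65 ± 0.22 (adjusted p = 0.045), which 10 of 16 alternative fits lost, 7 of them by leaving out 1 library.

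SELENOF (ENSG00000183291, chromosome 1, 86862445 to 86914577) fell in quiescent and irradiated cells. Its mRNA was at 182 and 188 CPM in cycling cells, 79.1, 90.4 and 143 CPM in quiescent and 106, 119 and 126 CPM in irradiated cells. After etoposide it was at 213, 211 and 193 CPM, above every cycling library. The log2 change was -0.83 ± 0.20 in quiescence (adjusted p = 0.012) and -0.66 ± 0.20 after radiation (0.018). Both calls were lost without either cycling RNA-seq library, the latter also without irradiated replicate 1, with adjusted p of up to 0.076 and 0.089. The footprints separated the states more cleanly, at 215, 232 and 241 CPM in cycling, 92.7, 128 and 148 CPM in quiescent, 158, 154 and 155 CPM in irradiated and 254, 274 and 268 CPM in etoposide-treated cells. The footprint changes of -0.90 ± 0.13 and -0.56 ± 0.13 (adjusted p = 0.00061 and 0.0043) were called in every alternative fit. Irradiated cells lay below etoposide-treated ones by -0.82 ± 0.18 in mRNA and -0.77 ± 0.13 in footprints (adjusted p = 0.0051 and 0.0015). Under thapsigargin SELENOF mRNA was at 146 and 118 CPM, lower by -0.49 ± 0.22 (adjusted p = 0.12), while the footprints, at 248 and 233 CPM, overlapped those of cycling cells.

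SELENOK and SELENOS sit in the ER membrane and take part in ER-associated degradation (ERAD), which pulls misfolded proteins back to the cytosol for destruction: SELENOS binds the ATPase VCP and the derlins, and SELENOK also works with the enzyme ZDHHC6 in attaching palmitate to proteins. SELENOK (ENSG00000113811, chromosome 3, 53884417 to 53891859) rose the most of the 10 genes under thapsigargin. Its mRNA was at 99.5 and 74.9 CPM there, against 32.6 and 35.1 CPM in cycling, 24.7, 21.0 and 29.6 CPM in quiescent, 31.2, 33.1 and 33.9 CPM in irradiated and 45.0, 40.9 and 37.2 CPM in etoposide-treated cells. Its footprints were at 102 and 81.4 CPM under thapsigargin and 25.0, 25.1 and 17.8 CPM in cycling cells. No library of another state reached the thapsigargin values in either assay. The rise was 2.57-fold in mRNA, a log2 change of 1.364 ± 0.18 (adjusted p = 0.00014), and 4.04-fold in footprints, 2.01 ± 0.21 (1.1e-05). In the senescent states SELENOK passed the test against cycling cells in neither assay, while irradiated cells had fewer footprints than etoposide-treated ones, by -0.73 ± 0.21 (adjusted p = 0.021). The latter call was lost without irradiated replicate 2 or etoposide replicate 3 (adjusted p of up to 0.092). RefSeq lists 3 pseudogenes of SELENOK, so its level is uncertain.

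SELENOS (ENSG00000131871, chromosome 15, 101270809 to 101277485) drew the sharpest line between the inducers of senescence after DIO2. Its mRNA was at 18.4, 24.7 and 19.6 CPM in irradiated and 14.9, 21.4 and 28.1 CPM in quiescent cells, and at 53.0 and 49.0 CPM in cycling and 59.2, 65.7 and 51.5 CPM in etoposide-treated ones. Its footprints were at 15.6, 15.6 and 19.1 CPM, 11.2, 23.6 and 32.8 CPM, 59.5, 55.6 and 60.7 CPM and 61.9, 64.8 and 58.0 CPM in the same order. In both assays irradiated and quiescent libraries overlapped each other and lay wholly below the cycling and etoposide libraries, which overlapped in turn. SELENOS fell by a log2 change of -1.29 ± 0.21 in mRNA and -1.81 ± 0.29 in footprints after radiation (adjusted p = 0.00039 and 0.00027). In quiescence the changes were -1.25 ± 0.21 and -1.38 ± 0.26 (adjusted p = 0.0020 and 0.0024). The direct difference between irradiated and etoposide-treated cells was -1.49 ± 0.20 in mRNA and -1.88 ± 0.29 in footprints (adjusted p = 0.00026 and 0.00087). Thapsigargin brought SELENOS to 89.0 and 79.2 CPM in mRNA and 106 and 111 CPM in footprints, above every library of every other state. These rises of 0.72 ± 0.23 and 0.89 ± 0.29 passed narrowly (adjusted p = 0.037 and 0.025). The mRNA call was lost without any one of the 4 libraries compared (adjusted p of up to 0.18), and the footprint call without cycling replicate 1 or 2 or either thapsigargin library and without the filter on low counts (up to 0.10).

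The bases before the start sites of SELENOS and SELENOK are shown because both genes rose under thapsigargin. The factors ATF6 and XBP1 of the unfolded protein response are known to bind ER stress elements, in which a CCAAT box and the letters CCACG stand at a fixed spacing. Each window is the 250 bases before the annotated start in RefSeq (GRCh38.p14), 5′ to 3′ on the gene's strand, and 9 of the 10 members had an entry. Capitals mark CCACG and CCAAT, the latter written ATTGG where it lies on the other strand.
SELENOS, chr15:101277486-101277735, minus strand: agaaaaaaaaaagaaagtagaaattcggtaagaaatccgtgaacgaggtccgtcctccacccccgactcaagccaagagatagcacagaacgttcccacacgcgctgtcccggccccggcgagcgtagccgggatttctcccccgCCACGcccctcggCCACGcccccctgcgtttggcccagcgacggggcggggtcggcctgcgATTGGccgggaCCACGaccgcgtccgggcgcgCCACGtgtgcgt
SELENOK, chr3:53891860-53892109, minus strand: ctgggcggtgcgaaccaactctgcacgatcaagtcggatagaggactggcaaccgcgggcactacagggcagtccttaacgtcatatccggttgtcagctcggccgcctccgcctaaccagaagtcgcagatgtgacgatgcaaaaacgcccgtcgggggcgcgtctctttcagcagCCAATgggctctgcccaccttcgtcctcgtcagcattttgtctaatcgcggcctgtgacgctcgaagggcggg
The SELENOS window holds CCACG 4 times, starting 105, 92, 33 and 12 bases before the start site, and an ATTGG starting 44 bases before it. The SELENOK window holds a CCAAT box that starts 73 bases before the start site and no CCACG. On either strand CCAAT occurs in 32.0% and CCACG in 33.5% of the 35116 windows of this length, so neither match sets these genes apart. The full ER stress element, CCAAT and CCACG with 9 free bases between them, was found in 0.074% of windows and its second form, ATTGG and CCACG with 1 free base between them, in 0.0513%, in neither case in a member. A match is a description of letters and not a bound site.

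SELENOP (ENSG00000250722, chromosome 5, 42799880 to 42811892) is the secreted carrier that brings selenium to other tissues. Its counts were low, from 18 and 19 reads in the cycling RNA-seq libraries to 134, 95 and 145 in the irradiated ones, and from 0 to 39 in any Ribo-seq library. SELENOP mRNA was at 0.657 and 0.986 CPM in cycling, 1.197, 1.81 and 2.86 CPM in quiescent, 5.08, 3.71 and 5.70 CPM in irradiated, 5.70, 3.57 and 3.21 CPM in etoposide-treated and 0.610 and 0.685 CPM in thapsigargin-treated cells. All senescent libraries were above all quiescent ones, and those above all cycling ones. The rise from cycling was 2.58 ± 0.42 after radiation and 2.36 ± 0.42 after etoposide (adjusted p = 0.00036 and 0.00071). Footprints rose by 2.49 ± 0.48 and 1.81 ± 0.48 (adjusted p = 0.0011 and 0.0099), from 0.617, 1.13 and 0.529 CPM in cycling cells to 4.08, 4.56 and 4.93 and 4.01, 2.01 and 2.42 CPM. The etoposide footprint call was lost without etoposide replicate 1 (adjusted p = 0.065). In quiescence the values of 1.27 ± 0.43 and 1.29 ± 0.45 did not pass (adjusted p = 0.061 and 0.055).

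Another gene, CCDC152, overlaps SELENOP on the opposite strand. Reads on that strand made up 74.7% and 83.3% of the RNA-seq reads at SELENOP in cycling cells, 44.5% to 57.9% in quiescent, 26.4% to 30.6% in irradiated and 16.8% to 26.5% in etoposide-treated cells. In Ribo-seq they were at most 1 read per library. Counted without strand, which leaves out reads that fit both genes, SELENOP kept 29.7% of its RNA-seq reads, and the etoposide call was lost (adjusted p = 0.075). Under thapsigargin the Ribo-seq counts of SELENOP were 0 and 5, 5 in all against 27 in cycling cells. The ratio of the scaled levels was 1.65 with a 95% interval of 0.498 to 4.36 (exact, conditional on the total), which covers counting error only. The library at 0 allows up to 1.64 CPM (3 counts).

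DIO2 (ENSG00000211448, chromosome 14, 80197526 to 80231057) is the ER enzyme that turns the prohormone thyroxine into active thyroid hormone. In RNA-seq it was at 56.4, 73.9 and 69.0 CPM after etoposide, 29.6 and 29.4 CPM in cycling, 13.5, 11.97 and 13.99 CPM in irradiated, 4.75, 7.44 and 10.5 CPM in quiescent and 3.29 and 2.23 CPM in thapsigargin-treated cells. The libraries of the 5 states did not overlap. DIO2 footprints kept the order of the means, at 27.03, 38.9 and 37.8, 14.3, 12.7 and 16.1, 5.14, 3.802 and 5.51, 2.88, 3.22 and 2.87 and 3.83 and 0 CPM, and only quiescent and thapsigargin libraries overlapped. Etoposide raised DIO2 by a log2 change of 1.17 ± 0.25 in mRNA and 1.27 ± 0.28 in footprints (adjusted p = 0.0030 and 0.0027). Radiation lowered it, with changes of -1.16 ± 0.25 and -1.55 ± 0.33 (adjusted p = 0.0025 and 0.0022). In quiescence the changes were -1.96 ± 0.25 and -2.26 ± 0.30 (adjusted p = 0.00059 and 0.00035). Irradiated cells thus had 0.198 of the DIO2 mRNA of etoposide-treated cells, a difference of -2.34 ± 0.23 in mRNA and -2.82 ± 0.33 in footprints (adjusted p = 5.8e-05 and 0.00020). All 8 of these calls held in every alternative fit.

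The fall under thapsigargin was the largest change of any member. The mRNA fell to 0.0930 of the cycling level, a log2 change of -3.43 ± 0.30 (adjusted p = 6.7e-06). In Ribo-seq counted without strand, both thapsigargin libraries held 0 DIO2 reads and the cycling ones 111, 148 and 128. Counted by strand, as in the main fit, the thapsigargin libraries held 7 and 0 reads against 471 in the cycling libraries. The ratio of the scaled levels was 0.133 (95% interval 0.0531 to 0.276, counting error only), the fitted change was -2.92 ± 0.55 (adjusted p = 0.00089), and the library at 0 allows up to 1.58 CPM. The fitted footprint change of DIO2 depended on single libraries and on the counting: it was -1.91 without thapsigargin replicate 2, -10.1 without replicate 1, which leaves only the library at 0, and -9.73 in unstranded counts, and it was called in each. Of 4 epithelial markers tested in RNA-seq under thapsigargin, 1 rose and 1 fell. KRT19 rose from 15.4 to 21.8 CPM in cycling cells to 89.0 to 96.3 CPM, KRT18 fell (-0.54 ± 0.18, adjusted p = 0.046), and CDH1 was at most 0.035 CPM. Of the 10 fibroblast markers 6 fell and 0 rose in RNA-seq, and 8 fell and 1 rose in Ribo-seq. The part of other cells in this result was not tested.

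DIO2 transcription is known to respond to cyclic AMP. Windows were at hand for 2 start sites of DIO2. The 250 bases before the upstream one of these are shown because they hold the cyclic AMP response element TGACGTCA, in capitals. The annotated span of the gene reaches further upstream, to 80231057, and no window there was examined.
DIO2, chr14:80212179-80212428, minus strand: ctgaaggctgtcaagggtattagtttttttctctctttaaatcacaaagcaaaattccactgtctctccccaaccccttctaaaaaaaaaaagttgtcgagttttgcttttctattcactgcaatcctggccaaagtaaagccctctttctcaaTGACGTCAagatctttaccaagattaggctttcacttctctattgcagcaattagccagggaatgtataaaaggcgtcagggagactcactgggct
The element starts 96 bases before the start site. TGACGTCA reads the same on both strands, occurs in 1.65% of the 35116 windows and was found in no other member. The antioxidant response core TGACNNNGC, which occurs in 10.9% of windows, was found in SELENOK and SELENOP. The letters TGACGTGG (0.612% of windows) and TGATGCAAT (0.216%), forms bound by factors of the stress response, were found in no member.

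Footprints and mRNA of the 10 genes moved largely together. Of the members called in both assays, 3 in quiescent, 7 in irradiated, 5 in etoposide-treated and 3 in thapsigargin-treated cells against cycling ones, all changed in the same direction in both. The share of all genes that agree in this way was not computed, so the agreement cannot be called particular to the members. The ratio of footprints to mRNA, a relative measure of ribosomes per mRNA that is called translational efficiency, was compared in a joint fit of both assays. Each assay was scaled on its own, so the ratio of a gene is relative to that of other genes. A change of translation common to all genes would not show in it. No member was called in any of the 6 comparisons, by edgeR or by DESeq2. Over all 11711 genes tested in edgeR the shares called were 0% in quiescent, 0.0256% in irradiated, 0.0683% in etoposide-treated and 20.8% in thapsigargin-treated cells. They were 0.0598% for senescent against quiescent and 0% for irradiated against etoposide-treated cells. At an unadjusted p under 0.05 stood SELENOT in quiescent cells and in senescent against quiescent cells, SELENOF and SELENOK under thapsigargin, and no member in the other 3 comparisons.

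**Figure D2:**
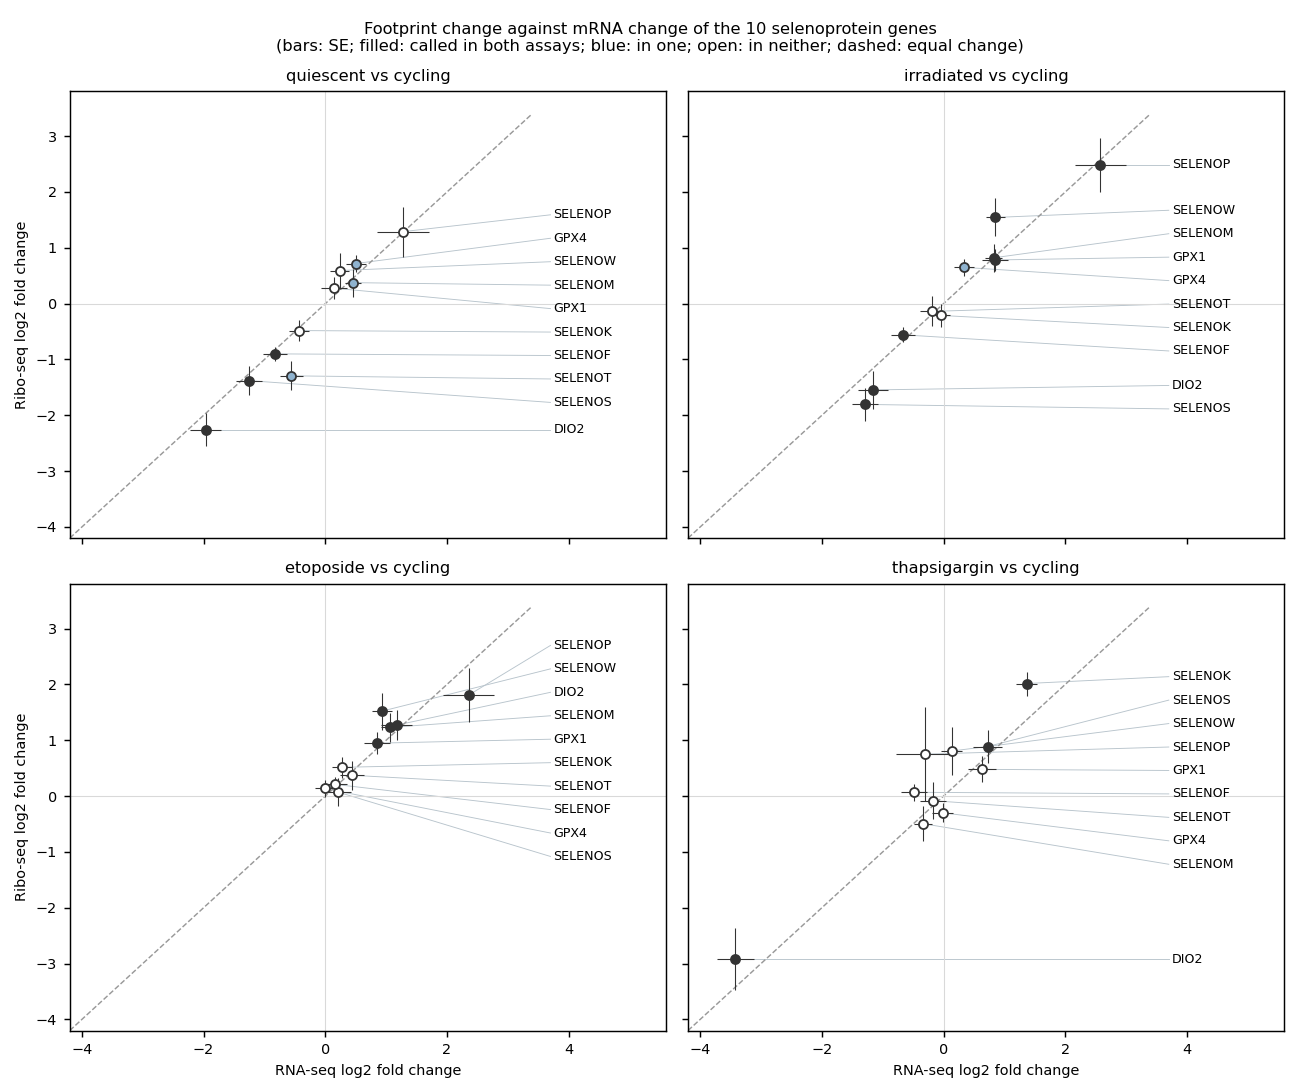
Log2 fold change against cycling cells in RNA-seq (horizontal) and Ribo-seq (vertical) of each gene in 4 states, with bars of 1 SE and a dashed line of equal change. Filled points were called in both assays, blue points in 1 and open points in neither. The points scatter about the dashed line. Among those farther from it, SELENOK (1.364 and 2.01) and SELENOP (-0.31 and 0.75) under thapsigargin lie above it, and SELENOT in quiescence (-0.56 and -1.29) lies below.

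SELENOT had its lowest ratio in quiescence. Its footprints per mRNA (CPM over mean CPM) were 0.0419, 0.0600 and 0.103 in the quiescent libraries, 0.0994, 0.108 and 0.134 in cycling and 0.0958, 0.119 and 0.113 in etoposide-treated ones. Only the highest quiescent value reached the range of the other states. The log2 change from cycling was -0.74 ± 0.33 with a 95% interval of -1.42 to -0.07 (adjusted p = 1.00). For the senescent mean against quiescence it was 0.72 ± 0.27 (0.16 to 1.29, adjusted p = 0.88).

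SELENOW ratios were higher in senescent than in most cycling libraries, at 0.122, 0.202 and 0.189 in irradiated and 0.162, 0.146 and 0.163 in etoposide-treated libraries against 0.133, 0.0702 and 0.111 in cycling ones. The changes were 0.68 ± 0.38 (-0.12 to 1.47) and 0.57 ± 0.38 (-0.20 to 1.35), with adjusted p of 0.90 and 1.00. Under thapsigargin the ratio of SELENOK was 1.17 and 0.934 against 0.738, 0.741 and 0.525 in cycling cells, a change of 0.66 ± 0.28 (0.07 to 1.24, adjusted p = 0.10). That of SELENOF was 1.88 and 1.77 against 1.16, 1.26 and 1.30, a change of 0.56 ± 0.27 (0.00 to 1.12, adjusted p = 0.14). Neither pair of groups overlapped, and neither change passed. With RNA-seq and Ribo-seq of the same number paired, SELENOF was called at 0.61 (adjusted p = 0.037). GPX4 had narrow intervals: the change was 0.21 ± 0.23 in quiescence (-0.27 to 0.68) and 0.30 ± 0.23 after radiation (-0.17 to 0.77).

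**Figure D3:**
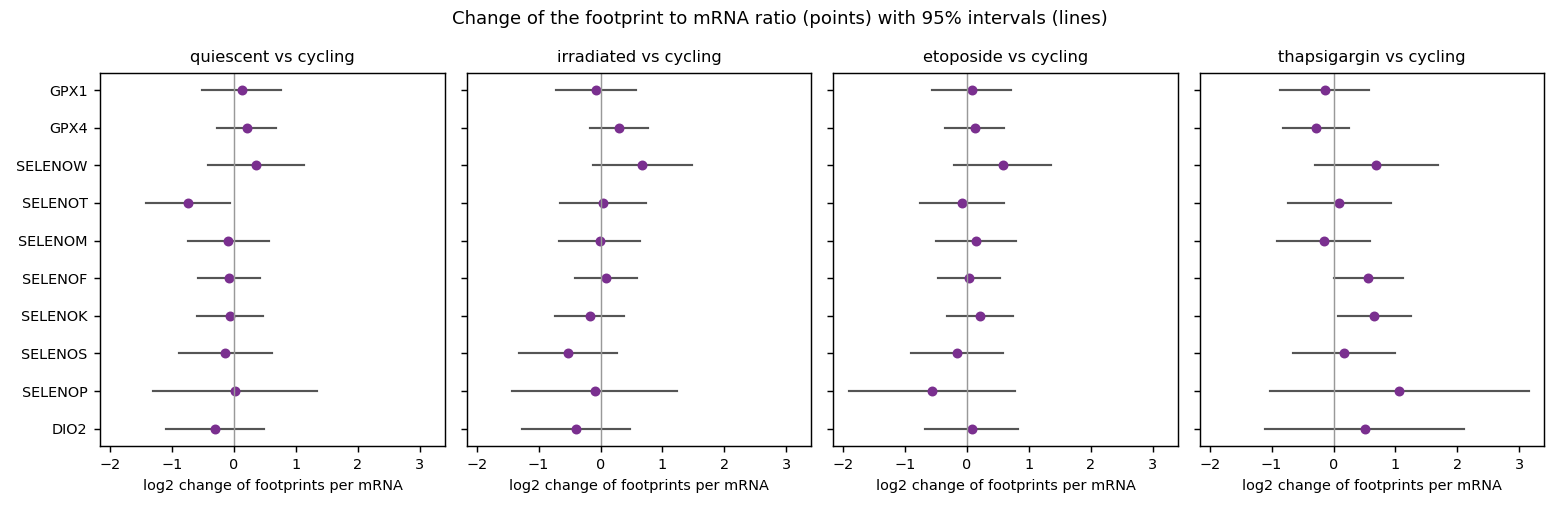
Log2 change of the footprint to mRNA ratio of each gene against cycling cells (points) with 95% intervals (lines), in 4 states. The intervals of SELENOT in quiescence (-1.42 to -0.07) and of SELENOK under thapsigargin (0.07 to 1.24) lie off 0 before adjustment, that of SELENOF under thapsigargin (0.00 to 1.12) only just, and the widest, of SELENOP under thapsigargin, spans -1.02 to 3.15.

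Across the 30 values for quiescent, irradiated and etoposide-treated cells the change of the ratio ran from -0.74 to 0.68 with a median SE of 0.32. In simulated counts for quiescent against cycling cells this fit recovered 47% of genes with a 2-fold and 100% with a 4-fold change of the ratio. Smaller changes would thus mostly be missed. The changed genes of that simulation were drawn from those with many footprints and were given the same spread. SELENOW, SELENOT, SELENOK, SELENOS, SELENOP and DIO2 had fewer footprints than any gene drawn, so recovery at their depth was not tested. RNA-seq calls lacked a footprint call for SELENOM in quiescence, and for GPX4, SELENOP and SELENOS in senescent against quiescent cells. Footprint calls lacked an mRNA call for GPX4 and SELENOT in quiescence and GPX4 after radiation. None of these differences between assays was called.

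Of 15 other selenoprotein genes listed, 10 were tested. In RNA-seq 3 rose and 1 fell in irradiated cells, 3 rose and 0 fell after etoposide, 2 rose and 1 fell in quiescence, and 1 fell under thapsigargin. The shares of all genes called in RNA-seq, against which these counts and those of the lists that follow are to be read, were 34.9%, 34.5%, 15.6% and 24.5% in the same order. The called shares of 4 and 3 of 10 in the senescent states are thus near those of all genes in RNA-seq. In Ribo-seq, with 10 tested, 4 rose and 3 fell after radiation and 5 rose and 1 fell after etoposide. In quiescence 1 rose and 1 fell, and under thapsigargin 2 rose and 2 fell. The shares of all genes called in Ribo-seq were 40.6%, 33.9%, 22.4% and 44.6% in the same order. In mRNA GPX3, the secreted glutathione peroxidase, rose by 3.95 ± 0.39 after radiation, 3.17 ± 0.38 after etoposide and 1.85 ± 0.38 in quiescence (adjusted p = 5.5e-06, 2.8e-05 and 0.0053). TXNRD1, the cytosolic thioredoxin reductase, rose by 1.15 ± 0.12 and 0.95 ± 0.12 in the senescent states. Like SELENOS, SELENOI, an enzyme of phospholipid synthesis, fell in irradiated and quiescent cells (-1.54 ± 0.18 and -1.14 ± 0.18) and lay lower after radiation than after etoposide (-1.33 ± 0.17, adjusted p = 0.00023). Under thapsigargin the ratio of footprints to mRNA rose for TXNRD1 (0.95 ± 0.18, adjusted p = 0.00062) and fell for SELENON, an ER protein of calcium handling (-2.71 ± 0.67, adjusted p = 0.0065).

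**Figure D4:**
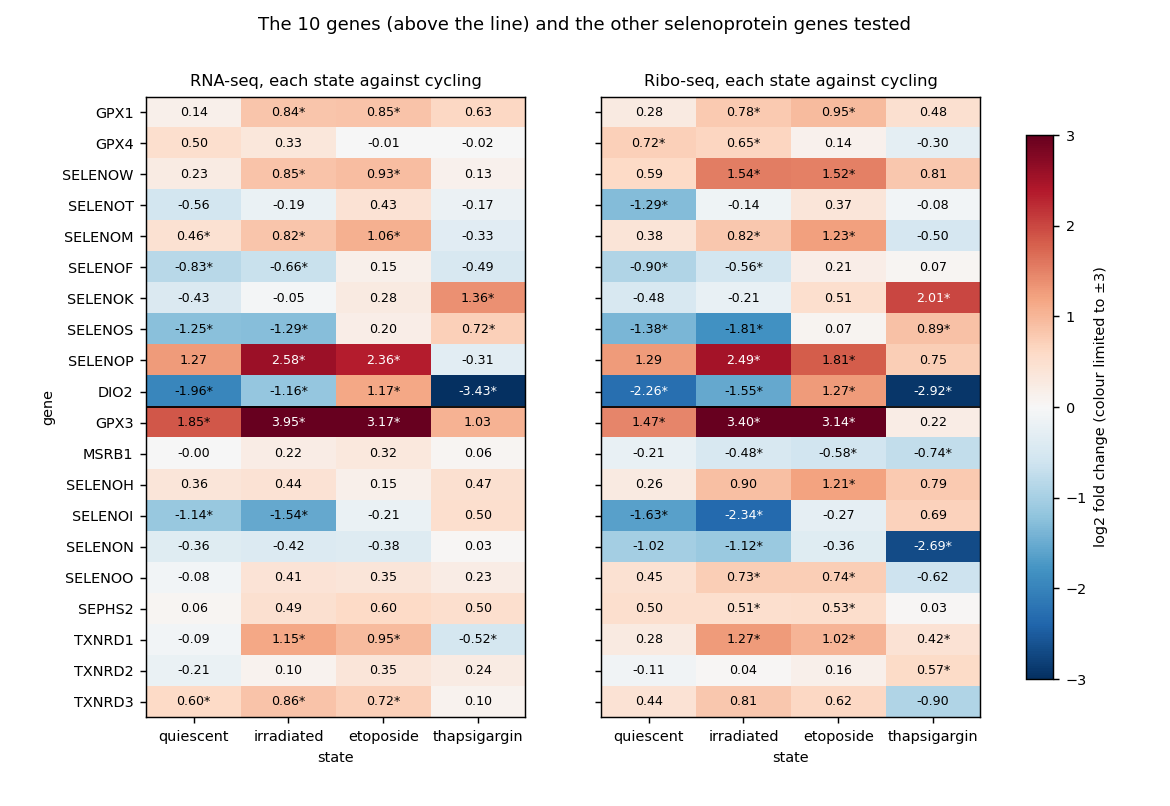
Log2 fold change against cycling cells in RNA-seq and Ribo-seq for the 10 genes (above the line) and the 10 other selenoprotein genes tested, with an asterisk at an adjusted p under 0.05 and colour limited to ±3. GPX3 shows the largest rises, 3.95 in irradiated RNA-seq, and DIO2 and SELENON the largest falls under thapsigargin.

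Of 11 genes of the selenocysteine machinery, all tested in RNA-seq, 1 rose and 1 fell in irradiated cells, 1 rose and 2 fell after etoposide, 2 rose and 1 fell in quiescence and 2 fell under thapsigargin. The called share was below that of all genes after radiation (2 of 11 against 34.9%), and above it in quiescence (3 of 11 against 15.6%). SEPHS1, a relative of the selenophosphate synthetase, fell in all 4 states, with a change of -1.30 ± 0.09 after etoposide and -0.88 ± 0.10 under thapsigargin. SECISBP2L, a relative of the SECIS binding protein, rose by 0.66 ± 0.12 and 0.86 ± 0.12 in the senescent states. SARS1, the synthetase that charges the selenocysteine tRNA with serine, gained footprints per mRNA relative to other genes under thapsigargin (1.75 ± 0.13, adjusted p = 7.2e-09). The mRNA of LRP8, a receptor for SELENOP, fell in irradiated, quiescent and etoposide-treated cells. The changes in RNA-seq were -1.31 ± 0.19, -0.87 ± 0.18 and -0.62 ± 0.18 (adjusted p = 0.00012, 0.0065 and 0.018). LRP8 footprints were called lower in quiescence only (-1.35). Their changes of -1.272 after radiation and 0.052 after etoposide were not called.

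Of 11 ERAD and ER partners of SELENOS, SELENOK and SELENOF, 6 fell and 0 rose in RNA-seq after radiation, and 4 fell and 0 rose in quiescence. The changes of UGGT1, which SELENOF binds, were -1.55 ± 0.22 and -0.92 ± 0.22, and those of DERL1, a derlin, -1.17 ± 0.17 and -0.83 ± 0.17. After etoposide 1 rose and 1 fell. Under thapsigargin 4 rose and 0 fell, among them DERL3 (3.11 ± 0.71), SYVN1 (1.40 ± 0.32) and DERL2 (1.03 ± 0.17). In Ribo-seq, where 10 were tested, 0 rose and 3 fell under thapsigargin (44.6% of all genes called), and SELENOK and SELENOS rose. The difference between members and partners was not tested.

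The relatives with cysteine in place of selenocysteine and the peroxiredoxins had 13 tested genes. In RNA-seq 5 rose and 3 fell in irradiated cells and 5 rose and 0 fell after etoposide, where 34.9% and 34.5% of all genes were called. PRDX6 (1.16 ± 0.14) and TXN (1.10 ± 0.18), the substrate of TXNRD1, rose after radiation, and PRDX4, the peroxiredoxin of the ER, fell (-1.50 ± 0.24). Of 10 glutathione enzymes, 4 rose and 1 fell after radiation, 6 rose and 0 fell after etoposide, against the same shares. HMOX1 rose by 1.66 ± 0.19 and 1.21 ± 0.19. In Ribo-seq 6 relatives and peroxiredoxins rose and 3 fell after radiation, and 6 glutathione enzymes rose and 2 fell (40.6% of all genes called). Under thapsigargin 0 relatives and peroxiredoxins rose and 5 fell in RNA-seq, and 2 rose and 7 fell in Ribo-seq. Of the glutathione enzymes 2 rose and 1 fell in RNA-seq, and 1 rose and 6 fell in Ribo-seq. The shares of all genes called under thapsigargin were 24.5% and 44.6%. Beside DIO2, 6 genes of thyroid hormone handling were tested in RNA-seq. Of these, 1 rose and 2 fell after etoposide, and 2 rose and 1 fell after radiation. In quiescence 0 rose and 1 fell, and under thapsigargin 3 rose and 0 fell. THRB, a thyroid hormone receptor, rose by 2.38 ± 0.43 after etoposide, 1.91 ± 0.44 after radiation and 1.85 ± 0.45 under thapsigargin.

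The genes whose mRNA ran most like that of a member over the 13 RNA-seq libraries were found by Pearson's r of log2(CPM + 1) among the genes tested. SELENOS came closest to NCEH1 (r = 0.98) and SLC35B1 (0.98), SELENOF to MFSD1 (0.98) and SLC38A9 (0.97), and SELENOK to IDI1 (0.98) and ATF7IP2 (0.96). DIO2 came closest to DIPK1A (0.98) and BNC1 (0.97), SELENOP to PLEKHH2 (0.97) and SDHAF4 (0.97), and SELENOT to FAM174A (0.97) and SLC35E3 (0.96). For GPX1 they were NCS1 (0.98) and GUK1 (0.96), for SELENOW SUGCT (0.97) and COX14 (0.97), and for SELENOM CIAO1 (0.98) and DCTN5 (0.98). GPX4 had the least similar nearest genes, EEF2 (0.93) and IL34 (0.91). These values describe libraries that share states and depth, and as the best of many genes they are high by choice.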

How the data were processed

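RNA-seq and Ribo-seq of 27 libraries were used as deposited by the authors, as raw counts of reads per gene. Per the submitters' processing notes the tools were bcl2fastq, STAR 2.7.10b and DESeq2 1.36.0 with the build hg38. The layout is that of STAR, with counts for both strands and for each strand. Per the labels' protocols, RNA-seq used a stranded TruSeq kit and Ribo-seq a small RNA kit after RNase I digestion, for which the labels give differing times. As the kits require, the reverse strand was counted in RNA-seq and the forward strand in Ribo-seq. Reads mapping to several places or to several genes are in no gene's count.

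The 60534 gene IDs shared by the 2 gene lists were used, without the summary lines that name no gene (unmapped reads made up 1.35% to 40.6% of a library). Of the IDs, 19303 were protein coding in the RefSeq table (GRCh38.p14), matched by symbol. These were filtered with filterByExpr (minimum count 10) and tested two-sided by the quasi-likelihood F test of edgeR 4.0.16 (R 4.3.3) with TMM scaling, all 5 states in a fit and Benjamini-Hochberg adjustment over all genes tested. The change of the footprint to mRNA ratio was the interaction of assay and state in a fit of all libraries. SE is the absolute log2 change over the square root of F, and 95% intervals use the t distribution of that fit. CPM are counts per 1e6 after TMM scaling. Libraries of a state differed by more than sampling noise (chi-square per degree of freedom of 1.96 to 132.9). The procedure was tested on simulated data.

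The members and lists were chosen with earlier results of these data known. Named are all 10 members, from each other list at most the 3 called genes with the largest change per comparison and assay, and for each member the 2 genes most like it in RNA-seq. Alternatives were DESeq2 1.42.0, other size factors, no filter, unstranded counts, all gene IDs, only the states compared, a replicate block, scaling all libraries together and leaving out each library.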

Additional observations from a re-analysis of the deposited data

Results flagged for a closer look

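The effects of the 2 inducers of senescence differed by a test of the difference itself (irradiated minus etoposide, edgeR's quasi-likelihood test, log2 scale). DIO2 differed by -2.34 in RNA-seq, lower in 3 of 3 irradiated libraries than in any etoposide library, and by -2.82 in Ribo-seq (adjusted p = 5.8e-05 and 0.00020). It was also the member that rose under etoposide and fell under radiation in both assays. SELENOS differed by -1.49 and -1.88 (adjusted p = 0.00026 and 0.00087), and SELENOF by -0.82 and -0.77 (0.0051 and 0.0015). SELENOT differed by -0.63 in RNA-seq (adjusted p = 0.019). In Ribo-seq SELENOK differed by -0.73 and GPX4, in the other direction, by 0.51 (adjusted p = 0.021 and 0.022). The calls of SELENOT, SELENOK and GPX4 each depend on single libraries.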

How the results depend on the processing

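Of 66 member results called in either assay, all 66 kept their direction in every alternative tried, and 48 were called in every one. The 884 alternative fits of these results lost a call in 68 cases. The number of members called in RNA-seq in quiescent against cycling cells, 4, became 7 with DESeq2 and 2 with only the states compared, and ran from 2 to 7 over fits that leave out 1 library (2 without either cycling library, 7 without quiescent replicate 3). All other counts of members in RNA-seq and Ribo-seq stayed within 1.5 times of the reported one, though not always with the same members: without quiescent replicate 2 or irradiated replicate 3 the 7 footprint calls of the senescent mean against quiescence became 5, 4 of them higher and the newly called GPX4 lower. The footprint change of GPX1 under thapsigargin, 0.48 and not called, ran from -0.095 without thapsigargin Ribo-seq replicate 2 to 0.84 without replicate 1. Replicate numbers were not taken to pair the samples, since same-numbered libraries did not all correlate above 0.1 in their deviations from the state means: 10 of 23 pairs did in RNA-seq, 7 of 26 in Ribo-seq and 7 of 13 across assays. Of pairs of different number 17 of 44 did in RNA-seq, 6 of 52 in Ribo-seq and 2 of 24 across assays. Every etoposide and cycling RNA-seq library correlated best with the Ribo-seq library of its own number (r of 0.143 to 0.444), a hint of pairing there. Quiescent replicate 1 did so too (0.626), but quiescent replicates 2 and 3 did not. Where a state has 2 libraries, their deviations mirror each other. The 2 cycling RNA-seq libraries are thus not independent here, and both thapsigargin pairs hold 1 value, -0.006. A replicate block moved the count for the ratio under thapsigargin from 0 to 1 (SELENOF) and no other count by more than 1.5 times. The cause of these shifts was not tested. Depth limits the thapsigargin Ribo-seq values most, above all those of DIO2 and SELENOP.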
